A study of Homo sapiens with 24 samples.

Results

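The hypoxia response of HCT116 cells, a colon carcinoma line, was compared with the hypoxia responses of A549 (lung carcinoma), PC3 (prostate carcinoma) and T47D (breast carcinoma) cells. All 24 of the 24 RNA-seq libraries entered 1 fit with 8 groups, 3 replicates of each of the 4 lines in 21% oxygen (normoxia) and after 16 h in 0.5% oxygen (hypoxia). The hypoxia response of a line was the log2 fold change of hypoxia against normoxia, and the difference of a gene was the response in HCT116 minus the mean of the responses in the other 3 lines. Every gene that passed the filter on low counts was a member, 16089 of the 23106 genes in the count files. The cells were unmodified lines with no transgene or drug, each line is a single established culture model of its cancer, and all were grown with serum. HCT116 was the only line grown in McCoy's medium, A549 and PC3 shared F12K medium and T47D was grown in DMEM, so the line and its medium cannot be told apart. Nothing in the labels shows that replicates came from separate cultures, and p-values therefore measure the spread between these libraries, which may be technical.

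Cells sense oxygen through prolyl hydroxylases (EGLN1, EGLN2 and EGLN3) that mark the α subunits of hypoxia-inducible factor (HIF) for destruction through the VHL ubiquitin ligase. When oxygen falls, HIF-1α (HIF1A) and HIF-2α (EPAS1) accumulate, pair with HIF-1β (ARNT) and bind the core sequence ACGTG or GCGTG near genes of glucose uptake, glycolysis, angiogenesis and matrix remodelling. Prolonged hypoxia also lowers transcripts of mitochondrial and biosynthetic genes in many cells, and how large each arm becomes differs between cell types.

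The labels were checked against marker genes in CPM, the reads of a gene scaled to the size of its library. HCT116 expressed the epithelial gene EPCAM at a mean of 281 CPM and the intestinal transcription factor CDX2 at 15.9 CPM, and CDX2 was at most 0.889 CPM in the other lines. Other intestinal markers were at or near 0 in HCT116: CDX1 was listed at 0, VIL1 at 0.023, CDH17 at 0.0523, GPA33 at 0.156 and LGALS4 at 0.0368 CPM. T47D expressed the hormone receptors ESR1 at 152 CPM and PGR at 695 CPM, and A549 had AKR1B10 at 3370 CPM and CDKN2A at 0. Of 11 fibroblast and blood markers tested, 0 differed in response (edgeR), with 1 at an unadjusted p under 0.05 and 1 called by DESeq2, and their summed level was between 16.2 and 26.3 CPM in normoxic and between 13.8 and 23.6 CPM in hypoxic HCT116 libraries, with the blood gene HBB at 0 in every line. Library totals were 22698584 to 62850747 counts, so that 3 counts, taken as the floor, were 0.0436 to 0.132 CPM. The shallowest HCT116 library was hypoxia replicate 3, with 23497800 counts.

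More genes were called regulated by hypoxia in HCT116 than in any other line, and their log2 responses were more widely spread. A gene was called when its adjusted p was under 0.05 and its fold change above 1.2 (edgeR quasi-likelihood test, Benjamini-Hochberg adjustment over all genes). By this rule 4362 genes were upregulated in HCT116 (27.1% of genes tested) and 3692 were downregulated (22.9%). The same rule gave 1427 and 1182 genes in A549, 867 and 425 in PC3 and 2231 and 1599 in T47D. For the mean response of A549, PC3 and T47D, which pools 18 libraries, it gave 3308 upregulated (20.6%) and 2670 downregulated genes (16.6%). The SD of the fitted log2 responses over the 13293 genes averaging 50 counts or more was 1.04 in HCT116, 0.69 in A549, 0.61 in PC3 and 0.79 in T47D. In these bulk libraries fewer cells of a type and less RNA per cell cannot be told apart.

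The responses of HCT116 mostly had the direction of the other lines and a larger size. Of the 3308 genes upregulated in the mean of the other lines, 2462 (74.4%) were upregulated in HCT116, 805 were not called and 41 were downregulated. Their median log2 response was 0.54 in the other lines and 0.90 in HCT116. Of the 2670 downregulated genes, 2097 (78.5%) were downregulated in HCT116, 560 were not called and 13 were upregulated, with medians of −0.52 and −1.06. These shared genes made up 56.4% of the upregulated and 56.8% of the downregulated genes of HCT116. A further 1887 upregulated and 1554 downregulated genes of HCT116 were not called in either direction in the mean of the other lines. Across the 13293 genes, which are not independent replicates, the response of HCT116 had a Pearson r of 0.616 with the mean of the other lines, 0.471 with A549, 0.454 with PC3 and 0.502 with T47D, given as a description.

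The difference itself was called for 3470 genes, 21.6% of those tested. HCT116 had the higher response at 1745 genes (10.8%) and the lower response at 1725 (10.7%), and at an unadjusted p under 0.05 the numbers were 2854 and 2674. The median difference over all genes was 0.00, so the balance of higher and lower calls depended on the filter and scaling. With no filter on low counts 1214 genes were called higher and 1877 lower (39.3% higher), with a minimum mean count of 50 they were 1339 and 2165 (38.2% higher), and with DESeq2 size factors in edgeR 1403 and 2009 (41.1% higher), against 50.3% as reported.

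Genes were sorted by which response passed the test. The difference was a stronger induction in HCT116 for 1681 genes (48.4% of calls, median difference 0.78) and a stronger repression for 1565 (45.1%, median −0.92). HCT116 induced 98 genes less than the other lines (median −1.22) and repressed 31 genes less (median 0.82). Opposite responses were found at 54 genes, 13 upregulated in HCT116 and downregulated in the mean of the other lines, and 41 the reverse. A further 41 genes differed while neither response was called alone.

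**Figure D1:**
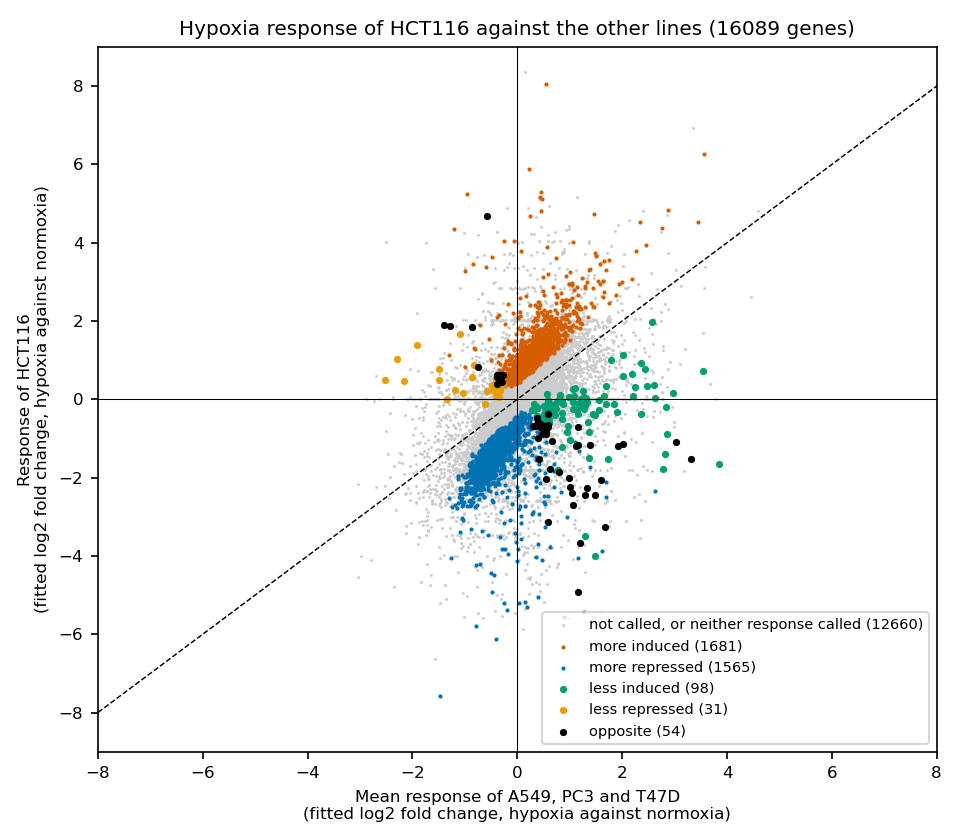
Fitted log2 hypoxia response in HCT116 (vertical axis) against the mean response of A549, PC3 and T47D (horizontal axis), with 1 point per gene tested, coloured by class, and a dashed line of equal responses (1 gene lies outside the axes). The 1681 more induced and 1565 more repressed genes lie on the steep side of the dashed line, while the 98 less induced and 54 opposite genes lie mostly to the right, at positive responses in the other lines.

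Against each line separately, HCT116 had a higher response at 8.65% of genes and a lower one at 8% compared with A549, at 7.28% and 7.63% compared with PC3, and at 4.28% and 4.79% compared with T47D. These 3 comparisons share the 6 HCT116 libraries. Called in the same direction against all of the other lines were 255 of the 1745 higher genes (14.6%) and 335 of the 1725 lower genes (19.4%). The named genes of each class were taken from these.

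The number of calls depended on which libraries were kept, and on HCT116 normoxia replicate 2 above all. Without that library 579 genes were called higher and 537 lower. Without replicate 2 of both HCT116 groups the numbers were 206 and 211, and without replicate 2 of every group they were 34 and 61, against 1296 and 1223 without replicate 1 and 1336 and 1275 without replicate 3. Leaving out HCT116 hypoxia replicate 3 gave 1224 and 1106 genes. Leaving out A549 normoxia replicate 3 gave 1055 higher and 1745 lower calls. Without PC3 normoxia replicate 1 or 2 there were 1112 and 1023 higher and 1756 and 1720 lower calls. Without PC3 hypoxia replicate 1, 2 or 3 there were 1162, 1140 and 1132 higher and 1839, 1818 and 1794 lower calls. In these A549 and PC3 fits lower calls stayed near 1725 or rose, and the median difference was −0.05 to −0.07 in place of 0.00. Leaving out T47D normoxia replicate 3 likewise gave 1217 higher and 1942 lower calls, so this shift was not particular to the libraries named. Of the 23 genes named by class, 22 were still called without any 1 of the 24 libraries (RAB26 was lost without HCT116 normoxia replicate 2), and 11 were still called without replicate 2 of every group.

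**Figure D2:**
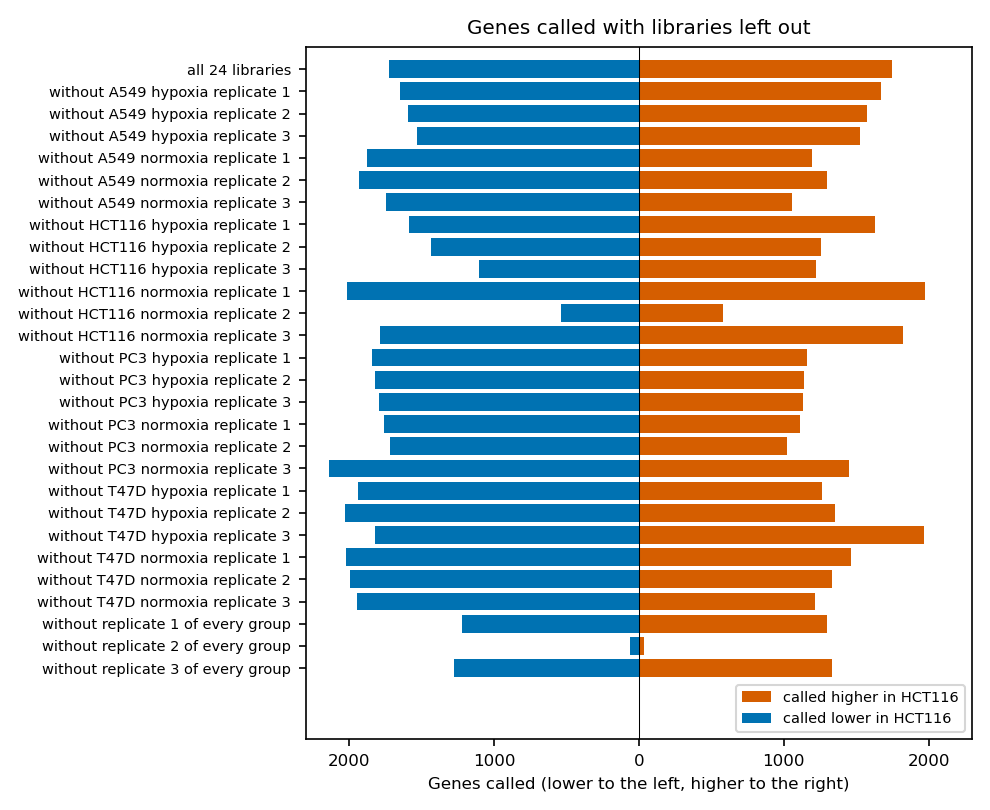
Number of genes called with a higher (right) or lower (left) hypoxia response in HCT116 with all 24 libraries and after leaving out each library or each replicate number. The bars shrink from 1745 and 1725 genes to 579 and 537 without HCT116 normoxia replicate 2, and to 34 and 61 without replicate 2 of every group.

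GC content and transcript length moved with the difference. When genes were split into 5 equal parts by GC content, from the lowest to the highest the median difference went from −0.28 to 0.28, and the median response in HCT116 from −0.43 to 0.56, with changes in the same direction in A549 (−0.22 to 0.20), PC3 (−0.18 to 0.25) and T47D (−0.18 to 0.29). Split likewise by length, from the shortest to the longest the median difference went from −0.17 to 0.21. In T47D hypoxia replicate 3 the median log2 ratio to the normoxic mean went the other way, from 0.24 to −0.19. It went from −0.15 to 0.28 in T47D hypoxia replicate 1 and from −0.2 to 0.33 in replicate 2. After a correction for both, 1644 genes were called higher (10.2%) and 1312 lower (8.15%), of which 1241 (71.1% of the uncorrected calls) and 1059 (61.4%) were shared with the uncorrected fit. The part of GC content and length in any 1 result was not tested. Counts after the correction stand beside only some of the groups of genes below. For others, the corrected higher and lower calls were 5 and 3 for mitosis, 9 and 2 for replication and 5 and 1 for p53 targets. They were 9 and 0 for cholesterol synthesis, 2 and 4 for interferon-stimulated, 11 and 2 for matrix and 8 and 0 for epithelial genes. Secreted products had 7 and 2, the unfolded protein response 6 and 2, NF-κB 5 and 0 and clock genes 4 and 1.

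A few reads of genes that belong to the other lines were present in every HCT116 library, and most in hypoxia replicate 2. Of 35 genes with at least 50 CPM in A549 and at most 2 counts in the other 5 HCT116 libraries together, 25 had reads in hypoxia replicate 2, at a summed level of 0.045% of A549. For PC3 it was 11 of 30 genes at 0.054%, and for T47D 9 of 41 genes at 0.022% (119 counts). With genes picked likewise for each of the other HCT116 libraries, between 1 and 3 A549 genes had reads (0.0013 to 0.0087%), between 1 and 3 PC3 genes (0.0013 to 0.006%) and between 1 and 9 T47D genes (0.00048 to 0.003%), the 9 in normoxia replicate 3 (of 40 genes, 20 counts). Of the 1745 genes called higher, 11 had a level in that library of at most 0.2% of the A549 level (AGR2, BASP1, CBR1, CXCL5, IGFBP4, KRT81, PCDHGB1, PDE4D, PMEPA1, TM4SF1 and UCHL1), of which PCDHGB1 had no read there. Without this library CXCL5 (difference 0.96, adjusted p = 1, edgeR) and IGFBP4 (−0.54, adjusted p = 1) were no longer called, while PMEPA1 (4.56, adjusted p = 0.000363) and KRT81 (1.32, adjusted p = 0.0228) were. For the other 7 genes the part of such reads was not tested.

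The genes whose response in HCT116 was opposite to the other lines included LOX, which encodes lysyl oxidase, the secreted enzyme that cross-links collagen and elastin and a textbook HIF target. LOX (hg19 chr5:121398890-121414108, minus strand) stood at 1.08, 0.67 and 0.303 CPM in normoxic and at 0.293, 0.134 and 0.309 CPM in hypoxic HCT116. In A549 it went from 0.826, 0.609 and 0.614 CPM to 17.8, 13.3 and 18.8 CPM, in T47D from 0.441, 0.378 and 0.637 to 10.9, 12.1 and 6.62 CPM, and in PC3 from 1.33, 1.38 and 1.28 to 2.25, 2.4 and 3.21 CPM. Hypoxic and normoxic libraries were fully apart in each of the other lines, whereas in HCT116 the lowest normoxic library lay among the hypoxic ones, on 7 to 60 counts a library. The response was −1.51 in HCT116 and 3.31 in the mean of the others, a difference of −4.82 ± 0.47 (SE, adjusted p = 1.17e-06, edgeR). The call was kept without replicate 2 of every group (difference −4.52, adjusted p = 0.00274).

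FGF11, an intracellular member of the fibroblast growth factor family, had the largest opposite difference among genes with a mean of at least 1 CPM in HCT116 and in the other lines. It fell in HCT116 from 3.15, 3.51 and 2.36 CPM to 1.12, 1.72 and 1.41 CPM, with no overlap. In A549 it stood at 0.61, 0.376 and 0.777 CPM in normoxia and at 8.06, 8.06 and 6.05 CPM in hypoxia, and in T47D at 0.0696, 0.494 and 0.398 against 4.15, 4.55 and 5.27 CPM. The normoxic level of HCT116 was above every normoxic library of the other lines, and its hypoxic level lay below that of A549 and T47D and overlapped with that of PC3 (1.57, 1.49 and 2.45 CPM). The difference was −4.12 ± 0.44 (SE, adjusted p = 5.15e-06, edgeR).

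A further 4 genes were named as downregulated in HCT116 and upregulated in the mean of the other lines. OBSL1, a cytoskeletal adaptor of the obscurin family, went from 13.8, 23.6 and 16.1 CPM to 7.34, 9.06 and 6.7 CPM in HCT116, and its difference was −2.33 ± 0.22 (SE), with responses of 0.97 in A549, 0.93 in PC3 and 1.48 in T47D. FAM13A went from 23.9, 28.3 and 25.8 to 13.7, 16.5 and 18 CPM (difference −1.86 ± 0.29). In neither gene did the HCT116 groups overlap. EDEM1, which sends misfolded glycoproteins of the endoplasmic reticulum to degradation, went from 29.3, 32.1 and 19.1 to 9.84, 16.4 and 12.4 CPM in HCT116 and from 62.6, 65.5 and 64.9 to 112, 108 and 109 CPM in A549 (difference −1.71 ± 0.20). FZD4, a Wnt receptor, went from 9.82, 11.9 and 14 to 7.49, 6.34 and 6.66 CPM in HCT116 and had responses of 0.00 in A549, 0.35 in PC3 and 1.12 in T47D (difference −1.29 ± 0.21). All of these had adjusted p-values of 0.00036 or less (edgeR), and all were called without replicate 2 of every group and after the GC and length correction.

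The reverse pattern, up in HCT116 and down in the mean of the other lines, was named at 3 genes. FOSL1, an AP-1 transcription factor subunit, rose in HCT116 from 73.5, 45.5 and 54.1 CPM to 139, 313 and 176 CPM, and went from 37.1, 76.8 and 69.4 to 21, 36.7 and 30.5 CPM in A549. In PC3 it was at 471, 497 and 409 CPM in normoxia and 513, 575 and 569 CPM in hypoxia, a response of 0.27, and in T47D it had at most 6 counts in any library, under or near the floor. The mean response of the other lines, −1.28, therefore rested partly on T47D (−3.04), and against the mean of A549 and PC3 alone the difference was 2.26 (adjusted p = 0.000249) in place of 3.14 ± 0.56 (SE, adjusted p = 0.000892, edgeR). SLC16A6, a monocarboxylate transporter family member, rose in HCT116 from 8.09, 8.47 and 10.7 to 36.5, 24.6 and 38.2 CPM, and went from 2.36, 2.54 and 1.37 to 0.328, 0.631 and 0.886 CPM in PC3 (difference 2.73 ± 0.30, adjusted p = 5.15e-06). In T47D, where it was highest among the other lines, its response was −0.10. C9orf91 had a smaller difference of 0.89 ± 0.20, with HCT116 at 11, 8.45 and 7.61 CPM in normoxia and 16.1, 11.6 and 14.1 CPM in hypoxia. SLC16A6 was still called without replicate 2 of every group, but FOSL1 and C9orf91 were not.

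**Figure D3:**
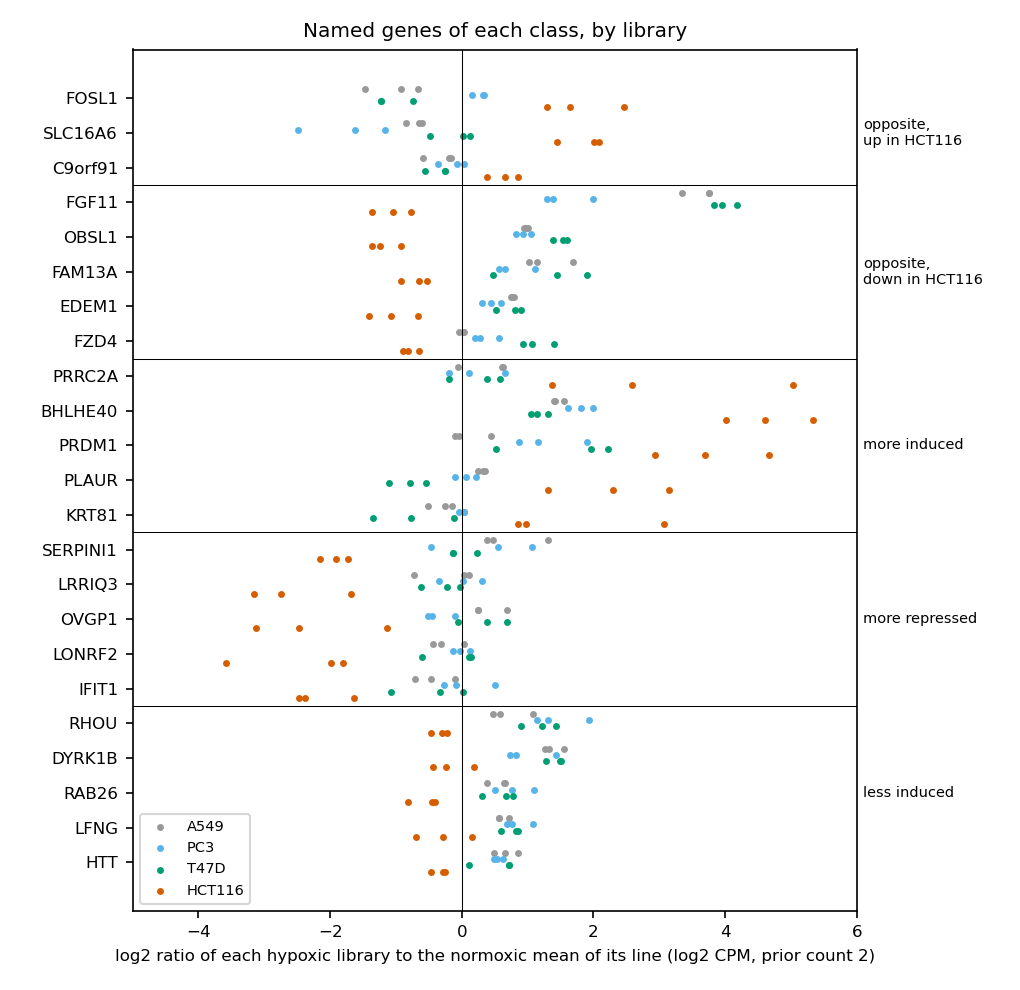
Log2 ratio of each hypoxic library to the normoxic mean of its line (horizontal axis) for the 23 genes named by class, with 3 points per line. HCT116 points lie on the other side of 0 from most points of the other lines for the opposite genes, and PRRC2A, PLAUR and KRT81 show a wide spread among the 3 HCT116 libraries.

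Less induction in HCT116 was named at 5 genes, each upregulated in the mean of the other lines and not called in HCT116. RHOU stood at 3.67, 4.27 and 6.11 CPM in normoxic and 3.31, 3.89 and 3.71 CPM in hypoxic HCT116, groups that overlapped, against responses of 0.73 in A549, 1.52 in PC3 and 1.24 in T47D (difference −1.53 ± 0.28, adjusted p = 0.00115, edgeR). DYRK1B, a dual-specificity kinase, stood at 5.65, 3.22 and 2.6 CPM and at 2.66, 3.06 and 4.1 CPM in HCT116, while in A549 it went from 19.7, 17.7 and 22.7 to 58.5, 50.3 and 47.8 CPM (difference −1.51 ± 0.30, adjusted p = 0.00189). Its HCT116 groups also overlapped. RAB26, a vesicle GTPase, LFNG, a glycosyltransferase that modifies Notch receptors, and HTT, which encodes huntingtin, had differences of −1.21 ± 0.30, −0.99 ± 0.22 and −0.94 ± 0.22, and responses in HCT116 of −0.60, −0.24 and −0.37. None of these 5 was called without replicate 2 of every group. No less repressed gene was called against each of the other lines.

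PGF, placental growth factor, a secreted ligand of the VEGF receptor FLT1, was also less induced, although the other lines differed among themselves. Its level in HCT116 was 5.79, 5.61 and 6.13 CPM in normoxia and 6.61, 5.38 and 5.87 CPM in hypoxia, a response of 0.03. The response was 6.94 in T47D, from at most 0.0637 CPM in normoxia to 8.45, 5.45 and 3.62 CPM, and −0.36 in A549, and the difference was −2.60 ± 0.39 (SE, adjusted p = 0.000186, edgeR). Taken line by line it was called against T47D (adjusted p = 1.34e-07) but not against PC3 (adjusted p = 0.0541) or A549 (adjusted p = 0.607), in comparisons that share the HCT116 libraries.

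HIF target genes were called higher in HCT116 for 29 of 48 and lower for 1. The list held 48 core target genes that the study chose in part on these libraries, so their direction in hypoxia is not independent evidence, and all 48 were upregulated both in HCT116 and in the mean of the other lines. The higher calls were 60.4% of the list, against 10.8% of all genes, and the difference had a median of 0.85 against 0.00 for all genes. The lower member was SLC16A3. After the GC and length correction 30 were higher and 2 lower, without HCT116 normoxia replicate 2 the numbers were 24 and 1, and without replicate 2 of every group 6 and 0. The median log2 ratio of the 48 genes in the hypoxic libraries was 1.96, 2.62 and 2.27 in HCT116, 1.62, 1.45 and 1.54 in A549, 0.84, 0.75 and 0.85 in PC3 and 1.93, 2.01 and 1.86 in T47D. HCT116 replicate 1 lay within the range of T47D, and replicates 2 and 3 lay above every other library.

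BHLHE40, a transcriptional repressor of the circadian clock, had the smallest p-value in the list. It rose in HCT116 from 14.9, 15 and 22.4 CPM to 278, 689 and 416 CPM, and in A549 from 154, 146 and 165 to 453, 407 and 411 CPM. Normoxic HCT116 lay below every library of the other lines, and hypoxic HCT116 overlapped with hypoxic A549. The difference was 3.26 ± 0.28 (SE, adjusted p = 2.69e-07, edgeR). KDM4B, a histone H3 lysine demethylase, rose from 19.2, 13.6 and 17.2 to 113, 166 and 153 CPM in HCT116 (difference 1.88 ± 0.23, adjusted p = 2.6e-05), and PLOD2, a lysyl hydroxylase of collagen, from 21.7, 25.5 and 39.4 to 212, 343 and 303 CPM (difference 1.94 ± 0.24, adjusted p = 2.93e-05). In both the HCT116 groups were far apart. Higher against each of the other lines were 9 of the 48, namely BHLHE40, KDM4B, PLOD2, GPI, TNIP1, KDM4C, ADM, STC2 and KCTD11.

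The promoters of genes on either side of the contrast were searched for the HIF core on both strands, because HIF binding was part of how the study chose the core list. RefSeq promoters (GRCh38.p14, 250 bases before to 50 after the start) were matched for 12375 genes (76.9%). ACGTG or GCGTG occurred in 60.7% of all these promoters, in 65.4% of genes called higher, 64.5% of genes called lower, 76.7% of the HIF core list, 54.8% of less induced and 47.6% of opposite genes, and ACGTG alone in 25.6% of all promoters and 51.2% of the HIF core list. The sequences are 60 bases upstream of the start, in gene orientation, of core targets BHLHE40 and PLOD2, which HCT116 induced more, of LOX and FGF11, which were opposite, and of CA9, which did not pass the test. Capitals mark the core or its reverse complement (CACGT or CACGC). They lie at chr3:4979261-4979320 (plus), chr3:146161298-146161357 (minus), chr5:122078269-122078328 (minus), chr17:7438089-7438148 (plus) and chr9:35673868-35673927 (plus) of GRCh38.p14.
BHLHE40: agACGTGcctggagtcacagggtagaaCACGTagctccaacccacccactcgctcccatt
PLOD2: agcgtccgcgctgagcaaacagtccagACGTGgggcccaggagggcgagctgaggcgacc
LOX: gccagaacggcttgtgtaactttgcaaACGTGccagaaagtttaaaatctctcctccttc
FGF11: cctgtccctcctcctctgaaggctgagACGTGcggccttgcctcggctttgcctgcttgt
CA9: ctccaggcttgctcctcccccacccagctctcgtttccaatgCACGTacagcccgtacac
These stretches were picked among promoters that hold a match, and OBSL1, which was opposite, and HK1, which HCT116 induced more, had none in their windows. A match is a description of the letters and not a bound site.

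Some well known HIF targets did not pass the test of the difference. CA9, the cell-surface carbonic anhydrase, went from 0.18, 0 and 0.0957 CPM to 17.3, 18.8 and 17.2 CPM in HCT116, and its difference was −0.55 ± 0.50 (adjusted p = 0.487, edgeR). The other lines lay far apart, with hypoxic levels of 129, 108 and 106 CPM in A549, 4.83, 3.73 and 4.54 CPM in PC3 and 42.1, 34.2 and 29.8 CPM in T47D, whose normoxic libraries were all listed at 0. Against the mean of A549 and PC3 alone the difference was 2.35 (adjusted p = 0.00321, edgeR). Over the alternatives that kept all 24 libraries it ranged from −3.64 to 2.35, so it depended on the setting in both directions. VEGFA, the main angiogenic ligand, went from 46.7, 50.7 and 40.7 to 110, 195 and 138 CPM in HCT116 (difference 0.38 ± 0.24, adjusted p = 0.269), and NDRG1 had a difference of 0.22 ± 0.36 (adjusted p = 0.757).

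Among 10 regulators of the HIF pathway, 2 had a higher response in HCT116 (20%, against 10.8% of all genes) and none a lower one, and without replicate 2 of every group none was called. EPAS1, which encodes HIF-2α, rose from 12.5, 13.6 and 14 CPM to 37.7, 83.6 and 59.5 CPM in HCT116, with a difference of 1.78 ± 0.29 (SE, adjusted p = 0.000379, edgeR). Its hypoxic level in HCT116 stayed below that of A549 (411, 383 and 392 CPM). EGLN1, the oxygen-sensing hydroxylase PHD2, rose from 55.1, 38.9 and 58.4 to 245, 279 and 262 CPM (difference 0.90 ± 0.19, adjusted p = 0.00278). HIF1A stood at 156, 124 and 183 CPM in normoxic and at 127, 129 and 114 CPM in hypoxic HCT116, groups that overlapped, and its difference of 0.37 ± 0.18 was not called (adjusted p = 0.154) but was called after the GC and length correction (adjusted p = 0.0133). ARNT, ARNT2, EGLN2, EGLN3, HIF1AN, VHL and CITED2 were not called in either fit, with differences from −0.19 for EGLN3 to 0.45 for ARNT.

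The glycolysis list, genes that carry glucose to lactate, overlapped with the core HIF list, with GPI, PFKFB4 and SLC16A3 among the shared members. It is therefore not a separate result. Its members were called higher for 14 of 23 and lower for 1. These were 60.9% and 4.35%, against 10.8% and 10.7% of all genes, with a median difference of 0.86. After the GC and length correction the numbers were 13 and 1, without HCT116 normoxia replicate 2 they were 9 and 1, and without replicate 2 of every group 3 and 0. The per-library median log2 ratio was 2.17 ± 0.17 (SD, n = 3) in HCT116, 1.59 ± 0.12 in A549, 0.68 ± 0.05 in PC3 and 2.55 ± 0.05 in T47D, so every hypoxic T47D library lay above every HCT116 library on this list. HK1, the constitutive hexokinase, rose in HCT116 from 43, 29.9 and 47.9 to 259, 380 and 312 CPM and had a response of 1.14 in A549, 1.17 in PC3 and 0.83 in T47D (difference 1.93 ± 0.25, adjusted p = 4.52e-05, edgeR). GPI, glucose-6-phosphate isomerase, rose from 320, 205 and 344 CPM to 2560, 4430 and 3240 CPM (difference 1.81 ± 0.25), and PFKFB4, which makes the phosphofructokinase activator fructose-2,6-bisphosphate, from 12, 12.9 and 18.1 to 187, 250 and 221 CPM (difference 1.49 ± 0.21). The 1 member with a lower response was the lactate exporter SLC16A3, at 318, 246 and 309 CPM in normoxic and 1170, 1150 and 1130 CPM in hypoxic HCT116 (difference −0.58 ± 0.18, adjusted p = 0.0253, edgeR). That call was lost in 8 leave-out fits and under 6 of 15 other settings, with a difference of −0.15 (adjusted p = 0.657) against the mean of A549 and PC3. SLC16A3 rose in HCT116 as well, from a normoxic level above that of A549 (53, 42.6 and 65.3 CPM) and T47D (24.1, 24.5 and 32.8 CPM).

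Of 19 secreted and surface products of hypoxic cells, 8 were called higher (42.1%, against 10.8% of all genes), namely PLAUR, ADM, STC2, ANGPTL4, LOXL2, TGFA, AREG and IGFBP3. ADM, STC2 and ANGPTL4 also belong to the core HIF list. LOX and PGF were lower (10.5%, against 10.7%). PLAUR, the urokinase receptor, rose in HCT116 from 23.2, 24.5 and 29.5 CPM to 63.5, 228 and 127 CPM, with no overlap but a wide spread among the hypoxic libraries, and had responses of 0.30 in A549, 0.07 in PC3 and −0.87 in T47D (difference 2.60 ± 0.32, adjusted p = 2.11e-05, edgeR). STC2, a secreted glycoprotein, rose from 62.7, 40.4 and 43.1 to 259, 461 and 344 CPM (difference 1.72 ± 0.27). Without replicate 2 of every group 1 member was called higher and 2 lower.

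Immediate early genes, the transcription factors and phosphatases that growth factor and stress signals switch on within minutes, had the largest median difference of the gene lists. The difference was called higher for 15 of 22 (68.2%, against 10.8% of all genes) and lower for none, with a median of 1.16. After the GC and length correction it was called higher for 16. No member was lower at an unadjusted p under 0.05 or by DESeq2 or limma-voom, and the same held for the HIF regulators, the histone demethylases and the tRNA synthetases. Without HCT116 normoxia replicate 2 there were 12 and without replicate 2 of every group 2. All 22 were upregulated in HCT116, against 12 in the mean of the other lines. The median log2 ratios of the hypoxic libraries were 1.24, 2.44 and 1.63 in HCT116, above the ranges of the other lines, but replicate 2 lay well above the other HCT116 replicates.

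The AP-1 subunits led this list. JUN rose in HCT116 from 9.3, 7.4 and 10.7 CPM to 66.9, 67.2 and 73.2 CPM, a tight group, and in A549 from 71.3, 97.9 and 97.5 to 198, 224 and 199 CPM (difference 1.88 ± 0.19, adjusted p = 2.89e-06, edgeR). FOSL2 rose from 24.2, 11.6 and 16.2 to 137, 172 and 155 CPM (difference 2.23 ± 0.27), and JUNB from 36.1, 37.9 and 58.2 to 120, 361 and 216 CPM (difference 2.05 ± 0.31). JUN, FOSL2, JUNB, JUND, KLF4, FOSL1 and DUSP5 were higher against each of the other lines. Others called were IER2, KLF6, EGR1, SPRY4, DUSP4, DUSP1, DUSP6 and MYC, of which DUSP1, DUSP4, DUSP5, DUSP6 and SPRY4 damp MAP kinase signalling.

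**Figure D4:**
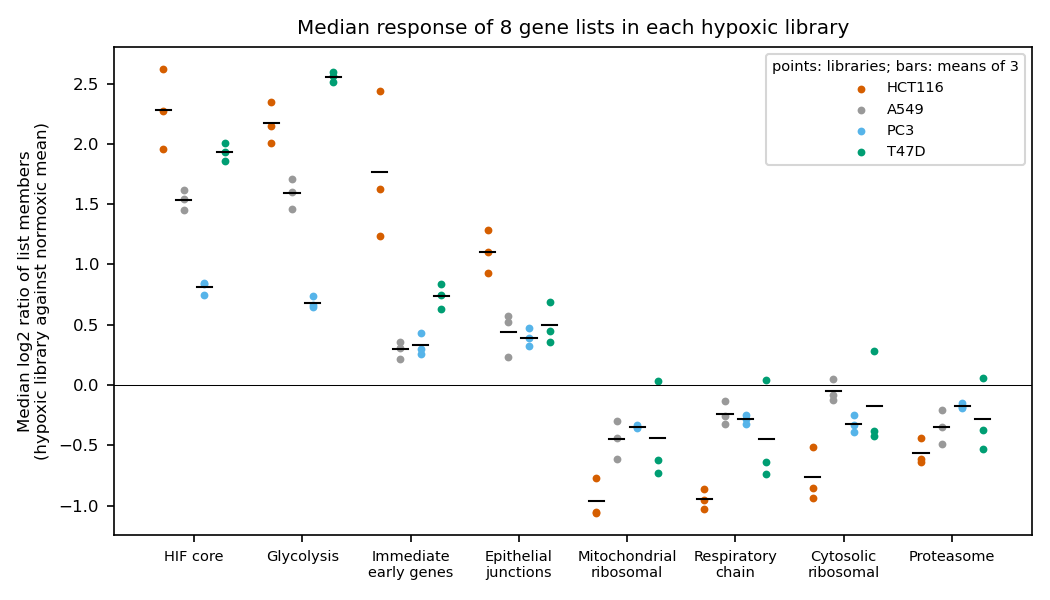
Median log2 ratio of hypoxic library to normoxic mean over the members of 8 gene lists (horizontal axis), with 1 point per hypoxic library and a bar at the mean of 3. The HCT116 mean lies highest for HIF core, immediate early and epithelial genes and lowest for the ribosomal, respiratory chain and proteasome lists, while T47D lies above HCT116 for glycolysis, and T47D hypoxia replicate 3 stands apart from the other T47D libraries on the lists that fall.

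Of 24 integrated stress response genes, which follow ATF4, 9 were called higher (37.5%) and none lower (median difference 0.44), and 9 after the correction. GDF15, a stress-induced cytokine, went from 44.6, 77.6 and 109 CPM to 182, 665 and 447 CPM in HCT116, with no overlap, and had responses between 0.25 and 0.70 in the other lines (difference 2.07 ± 0.40, adjusted p = 0.00168, edgeR). DDIT4, an inhibitor of mTORC1, went from 29.7, 61.3 and 95.7 to 758, 2320 and 1240 CPM (difference 2.2 ± 0.39). Of 22 NF-κB and inflammatory genes 5 were higher (22.7%, against 10.8% of all genes), namely TNIP1, NFKB2, RELB, ZFP36 and NFKB1, and none lower. DDIT4 and TNIP1 also belong to the core HIF list, so the counts of these lists are not fully separate from it. NFKB2, the p100 subunit, went from 52.6, 49.8 and 47.7 to 99.4, 203 and 126 CPM in HCT116 and had a response of 0.09 in the mean of the other lines (difference 1.42 ± 0.23, adjusted p = 0.000384). At an unadjusted p under 0.05 no stress response gene and 2 NF-κB genes were lower, and DESeq2 called 1 of each list lower. Without replicate 2 of every group none of the 24 and 1 of the 22, TNIP1, were called higher.

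Of 23 unfolded protein response genes, which answer protein misfolding in the endoplasmic reticulum, 5 were higher (SYVN1, HYOU1, HSP90B1, HSPA5 and CREB3L2) and 2 lower, EDEM1 and DNAJC10. These are 21.7% and 8.7%, against 10.8% and 10.7% of all genes, and without HCT116 normoxia replicate 2 the numbers were 1 and 2. DNAJC10, a disulfide reductase that acts with EDEM1, fell in HCT116 from 131, 163 and 114 CPM to 51.1, 49.2 and 46.9 CPM (difference −1.15 ± 0.18, adjusted p = 0.000238, edgeR). Of 24 p53 targets 6 were higher (25%), among them CDKN1A, and 3 lower (12.5%), against 4 and 1 without HCT116 normoxia replicate 2. TP53INP1 stood at 17.9, 30.1 and 31 CPM in normoxic and 14.1, 16.3 and 25.4 CPM in hypoxic HCT116, which overlapped, with responses of 1.02 in A549, 0.47 in PC3 and 1.05 in T47D (difference −1.36 ± 0.27, adjusted p = 0.00198).

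Histone demethylases of the KDM families, oxygen-dependent dioxygenases, were higher for 9 of 15 (60%, against 10.8% of all genes) and lower for none. The median difference was 0.71. After the GC and length correction 7 were called, without HCT116 normoxia replicate 2 it was 5, and without replicate 2 of every group 1. KDM3A rose from 25.4, 24.6 and 36.6 CPM to 187, 371 and 292 CPM in HCT116, and in T47D from 20.7, 17.9 and 21.2 to 140, 138 and 81.6 CPM (difference 1.61 ± 0.24, adjusted p = 0.000169, edgeR). KDM4C rose from 14.8, 11.2 and 13.4 to 36.4, 69.9 and 54.8 CPM (difference 1.40 ± 0.21). KDM4B, KDM3A and KDM4C also belong to the core HIF list.

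Of 30 matrix and adhesion genes 13 were higher (43.3%, against 10.8% of all genes) and 2 lower (LOX and LAMA5, 6.67% against 10.7%), with a median difference of 0.68 that fell to 0.35 after the GC and length correction. LAMA3, a laminin chain of epithelial basement membranes, rose from 2.18, 1.21 and 2.49 to 5.97, 11.3 and 10.8 CPM in HCT116 and had a response of 0.06 in the mean of the other lines (difference 2.18 ± 0.36, adjusted p = 0.000555, edgeR). Of 24 epithelial genes 8 were higher (33.3%), and KRT20 was lower (4.17%). ELF3, an epithelial transcription factor, rose from 30, 39.9 and 57.2 to 206, 445 and 333 CPM (difference 1.96 ± 0.30), and JUP, which encodes plakoglobin, from 86.8, 67.7 and 84.5 to 282, 546 and 414 CPM (difference 1.51 ± 0.27). Both were higher against each of the other lines, as were CDH1, which encodes E-cadherin, and PKP3. Without HCT116 normoxia replicate 2 there were 6 higher matrix genes and 5 higher epithelial genes, and without replicate 2 of every group 1 and 0.

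Of 26 genes of cholesterol synthesis 10 were higher (38.5%, against 10.8% of all genes) and 2 lower (7.69%, against 10.7%, median difference 0.32), led by INSIG1, the sterol-sensing retention protein, which rose from 69.6, 67.9 and 69 CPM to 269, 424 and 297 CPM in HCT116 (difference 1.2 ± 0.21, adjusted p = 0.000684, edgeR). HMGCS1, the cytosolic HMG-CoA synthase, rose from 81.1, 79.6 and 111 to 222, 211 and 210 CPM and had responses of −0.10 in A549, −0.11 in PC3 and 0.69 in T47D (difference 1.08 ± 0.20). Of 20 cytosolic tRNA synthetases 7 were higher (35%) and none lower, 10 after the correction. Without HCT116 normoxia replicate 2 there were 6 higher cholesterol genes and 2 higher synthetases, and without replicate 2 of every group 1 and 0. GARS, the glycyl-tRNA synthetase, rose from 136, 103 and 159 to 243, 295 and 241 CPM (difference 1.03 ± 0.20, adjusted p = 0.00177), whereas its responses elsewhere were between −0.22 and 0.15. YARS was opposite, at 185, 153 and 211 CPM in normoxic and 248, 261 and 214 CPM in hypoxic HCT116 and 198, 171 and 201 against 136, 124 and 120 CPM in A549 (difference 0.78 ± 0.18).

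Of 14 clock genes, 5 were higher (35.7%, against 10.8% of all genes) and 1 lower (7.14%, against 10.7%), with a median difference of 0.24. That median changed sign in 4 alternatives. Without HCT116 normoxia replicate 2 there were 3 higher members, and without replicate 2 of every group 1. Besides BHLHE40, the higher members included PER1 and NR1D1, repressors of the clock. PER1 rose in HCT116 from 32.9, 23.3 and 23.6 CPM to 68.7, 201 and 104 CPM (difference 1.78 ± 0.32, adjusted p = 0.000892, edgeR). C1orf51 was lower on at most 10 counts a library in HCT116.

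Beside BHLHE40 and PLAUR, 3 genes were named as more induced. PRDM1, the repressor BLIMP-1, rose from 0.396, 0.581 and 0.255 CPM to 3.23, 10.8 and 5.56 CPM in HCT116 (difference 2.95 ± 0.51, adjusted p = 0.000684, edgeR). PRRC2A, which lies in the major histocompatibility region of chromosome 6 where alternative haplotypes share sequence, went from 0.863, 0.894 and 0.83 CPM to 2.3, 5.4 and 29.4 CPM, and its values in T47D ranged from 4.88 to 50.9 CPM within normoxia, so that its difference of 3.73 ± 0.82 (adjusted p = 0.00352) is uncertain. Without hypoxia replicate 3 of HCT116 it was 2.09 (adjusted p = 0.0411). KRT81, a hair keratin with near-identical relatives, stood at 0.737, 0.559 and 0.383 CPM in normoxia and at 1.1, 4.85 and 1.01 CPM in hypoxic HCT116, with the highest value in hypoxia replicate 2, the library with the most reads of genes of the other lines. Its difference was 2.49 ± 0.50 with that library and 1.32 (adjusted p = 0.0228) without it. PRDM1 and KRT81 were not called without replicate 2 of every group, whereas PRRC2A was.

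Stronger repression in HCT116 was named at 5 genes, whose mean responses in the other lines were between −0.28 and 0.40. SERPINI1, neuroserpin, fell in HCT116 from 9.35, 21.6 and 14.2 CPM to 3.16, 4.25 and 3.75 CPM (difference −2.42 ± 0.44, adjusted p = 0.00105, edgeR), and LONRF2 from 6.87, 8.47 and 6.68 to 2.07, 0.575 and 1.81 CPM (difference −2.17 ± 0.36, adjusted p = 0.000582). OVGP1, an oviductal glycoprotein, fell from 2.48, 3.64 and 1.93 to 0.432, 1.17 and 0.265 CPM (difference −2.18 ± 0.45), and LRRIQ3 from 2.91, 4.8 and 2.01 to 0.915, 0.421 and 0.309 CPM (difference −2.31 ± 0.50). IFIT1, an interferon-induced RNA-binding protein, fell from 4.14, 14.1 and 12.7 to 1.59, 1.7 and 2.87 CPM (difference −2.08 ± 0.45, adjusted p = 0.0032). The HCT116 groups did not overlap in any of these. Without replicate 2 of every group OVGP1 and LONRF2 were still called, but SERPINI1, LRRIQ3 and IFIT1 were not. LRRIQ3 and IFIT1 were also lost without replicate 2 of both HCT116 groups. Of 29 interferon-stimulated genes as a list, 2 were lower (6.9%, against 10.7% of all genes) and 3 higher (10.3%, against 10.8%).

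Nuclear genes of mitochondrial energy production and of the ribosome were the lists with the most members called lower in HCT116. Of 81 respiratory chain genes 40 were called lower (49.4%, against 10.7% of all genes) and none higher, with a median difference of −0.69. Of 74 mitochondrial ribosomal protein genes 37 were lower and none higher (median −0.62), and of 81 cytosolic ribosomal protein genes 34 and none (median −0.63). Lower against each of the other lines were only 6 respiratory chain, 6 mitochondrial ribosomal and 2 cytosolic ribosomal genes, against 2.08% of all genes tested. After the GC and length correction 23, 20 and 25 were lower and 1, 3 and 2 higher, without HCT116 normoxia replicate 2 the lower calls were 8, 4 and 1, and without replicate 2 of every group 1, 0 and 0. At an unadjusted p under 0.05, 2, 2 and 1 members were higher, and DESeq2 called 1, 0 and 0 higher. The median differences kept their sign in every alternative, between −0.90 and −0.19 for the respiratory chain.

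The values of single genes show where that library stood. NDUFB3, a complex I subunit, stood at 110, 195 and 80.9 CPM in normoxic and at 23.6, 24.5 and 23.3 CPM in hypoxic HCT116, and at 60.1, 75.7 and 50.1 against 38.3, 37.1 and 40 CPM in A549 (difference −1.66 ± 0.30, adjusted p = 0.00102, edgeR). NDUFA4, associated with complex IV, stood at 312, 716 and 240 CPM against 70.4, 84.6 and 61 CPM in HCT116 (difference −1.82 ± 0.37, adjusted p = 0.00211). MRPL13, of the large mitochondrial ribosomal subunit, stood at 251, 440 and 217 against 74.9, 65.3 and 60.3 CPM (difference −1.47 ± 0.30). RPL22L1, a ribosomal protein paralog, stood at 796, 1830 and 541 against 192, 212 and 177 CPM (difference −1.64 ± 0.37). Normoxia replicate 2 was the highest HCT116 library in each, and the HCT116 groups were apart with or without it. The call of a difference from the other lines was less stable. That of RPL22L1 was lost without this library, and those of MRPL13 and RPL22L1 without replicate 2 of both HCT116 groups. Without replicate 2 of every group NDUFA4, MRPL13 and RPL22L1 were not called, whereas NDUFB3 was. The near-identical copies of many ribosomal protein genes make single values such as that of RPS18 (difference −1.94) uncertain.

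Of 36 proteasome genes 11 were lower (30.6%) and none higher (median difference −0.34), and 8 lower and 4 higher after the correction. Without HCT116 normoxia replicate 2 the lower calls were 4, and without replicate 2 of every group none was called, as in the cell cycle lists. At an unadjusted p under 0.05, 6 were higher, and DESeq2 and limma-voom called none higher. PSMA4, a subunit of the core particle, stood at 723, 1170 and 627 CPM in normoxic and 262, 219 and 231 CPM in hypoxic HCT116 (difference −1.16 ± 0.25, adjusted p = 0.00298, edgeR). Of 39 replication genes 10 were higher, LIG1 (difference 0.96 ± 0.17), CDT1, MCM2, MCM3, MCM5, MCM7, POLD1, POLD2, RRM1 and TK1, and 5 lower (25.6% and 12.8%, against 10.8% and 10.7% of all genes). Of 30 mitotic genes 4 were higher and 8 lower (13.3% and 26.7%), with MAD2L1 of the spindle checkpoint at 605, 990 and 405 against 179, 157 and 131 CPM (difference −1.40 ± 0.32). Without HCT116 normoxia replicate 2 there were 2 higher and 1 lower replication genes, and 0 higher and 1 lower mitotic genes. Of 49 replication-dependent histone genes, which lack poly(A) tails and are poorly sampled here, 5 were lower (10.2%, against 10.7% of all genes).

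**Figure D5:**
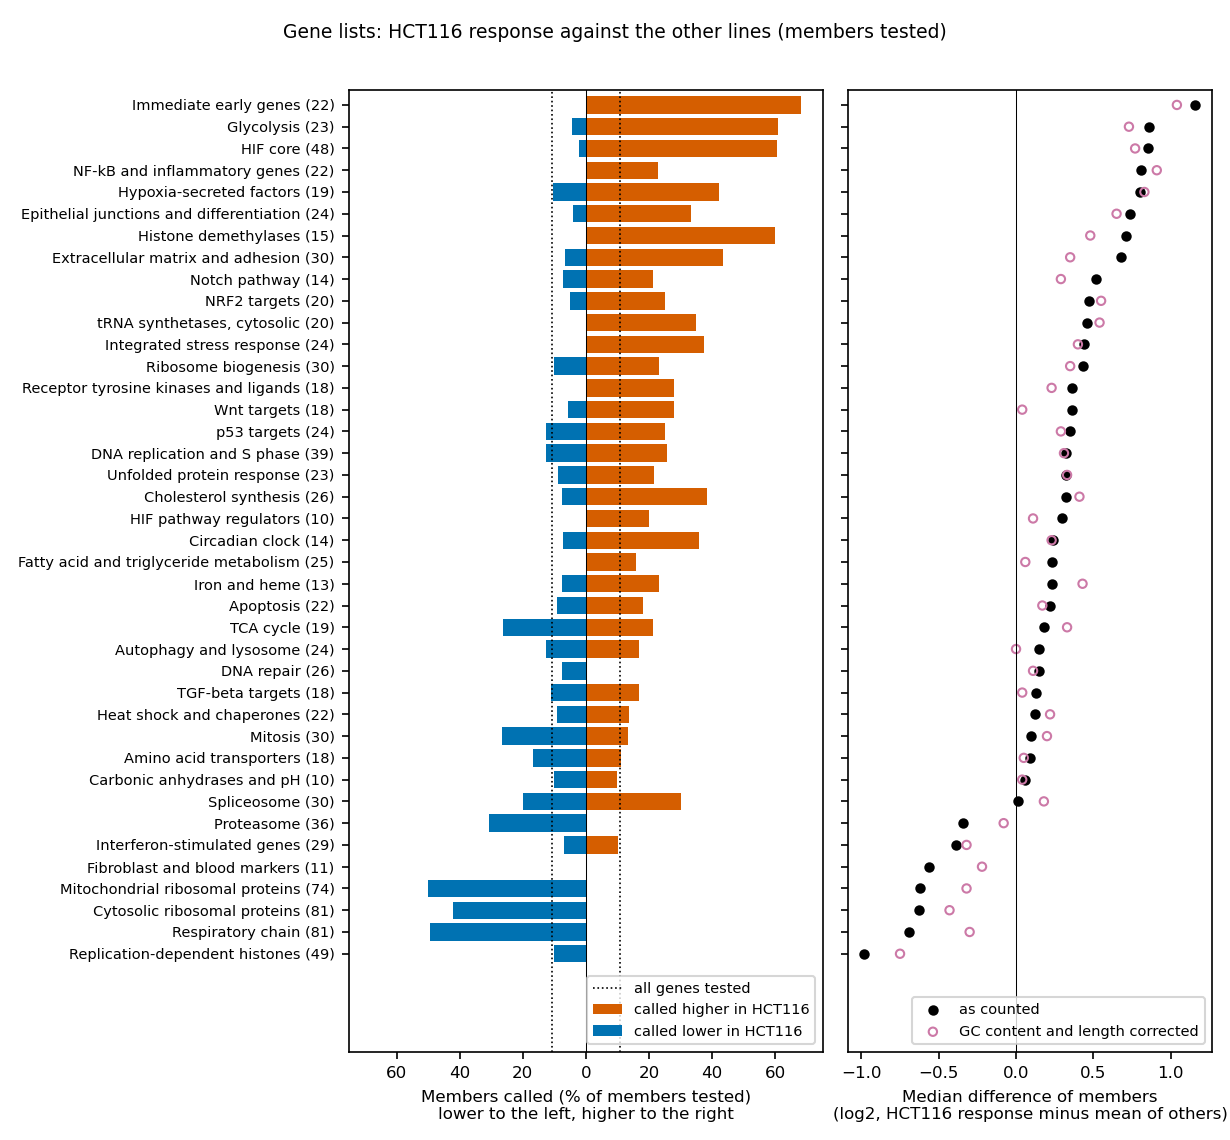
Left, share of tested members called higher (right) or lower (left) in HCT116 for each gene list, with dotted lines at 10.8% and 10.7% for all genes tested. Right, median difference of the members before (filled) and after (open) the GC and length correction. Immediate early, glycolysis, HIF core and histone demethylase lists reach 60 to 68.2% higher, and the respiratory chain and mitochondrial ribosomal lists 49.4 and 50% lower, with medians nearer to 0 after the correction.

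The largest fitted differences belonged to genes at or near 0 counts, where the fitted fold depends on the prior count and is no bound. IGFBP4, a binding protein of insulin-like growth factors, had 0 counts in 5 HCT116 libraries and 90 in hypoxia replicate 2, and at least 8531 counts in every library of the other lines. Without that library its difference was −0.54 (adjusted p = 1, edgeR). CXCL5, a chemokine, had 12 counts in the same library and 0 in the other HCT116 libraries. In the other direction SV2A, a synaptic vesicle protein, had 50, 9 and 17 counts in normoxic HCT116 and none in hypoxic HCT116, HHIP, a Hedgehog-binding protein, had 10, 5 and 3 against none, GJA9 had 9, 7 and 0 against none, DIO1, a thyroid hormone deiodinase, 6, 1 and 15 against none, and the histone gene HIST1H2BL 13, 11 and 2 against none. Reads of overlapping antisense genes cannot be told apart here, since the strand setting of the counting is not given in the sources used here.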

How the data were processed

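Counts per gene were deposited for each of 24 poly(A) RNA-seq libraries. Per the labels and the study's methods, the authors trimmed reads (Trim Galore 0.3.3), aligned them to GRCh37 (HISAT2 2.05), removed non-unique fragments (Picard 2.0.1) and counted reads per UCSC gene (HTSeq 0.5.4p3, intersection-strict); they tested with DESeq2. Here edgeR 4.0.16 (R 4.3.3) fitted 8 groups with TMM scaling and filterByExpr, and the contrast was tested by quasi-likelihood with Benjamini-Hochberg adjustment (adjusted p under 0.05, fold over 1.2). CPM values are TMM-scaled. Gene coordinates came from GENCODE on hg19, with 93.4% of symbols matched.

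The comparison, its members and the gene lists were chosen with earlier results of these data known. Named genes were the 5 with the largest difference per class, called against each line and with a mean of at least 1 CPM on both sides, the 5 largest under 1 CPM on either side, the 3 smallest p-values per list, the HIF regulators, and CA9, LOX, VEGFA and NDRG1. GC content and length were corrected by a spline (5 degrees of freedom) per library. On simulated data 98 of 200 changed genes were recovered with 2 false calls among 15715 unchanged genes. With a simulated GC trend 117 of 15705 unchanged genes were called without the correction and 3 with it, and with simulated replicate effects 0 of 200 changed genes were recovered without the block and 76 with it. DESeq2 1.42.0, limma 3.58.1, other scalings, filters, thresholds, replicate blocks and left-out libraries were alternatives. SE values come from the quasi-likelihood fit and include the estimated spread between these libraries, which may be technical. Floors cover counting error only.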

Additional observations from a re-analysis of the deposited data

Results flagged for a closer look

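These genes are listed because the hypoxia response differed between HCT116 and the mean of the other lines by the edgeR test of that difference, given on the log2 scale. FOSL1 (3.14), SLC16A6 (2.73) and C9orf91 (0.89) were upregulated in HCT116 and downregulated in the mean of the other lines, and FGF11 (−4.12), OBSL1 (−2.33), FAM13A (−1.86), EDEM1 (−1.71) and FZD4 (−1.29) were the reverse. PRRC2A (3.73), BHLHE40 (3.26), PRDM1 (2.95), PLAUR (2.60) and KRT81 (2.49) were induced more in HCT116. SERPINI1 (−2.42), LRRIQ3 (−2.31), OVGP1 (−2.18), LONRF2 (−2.17) and IFIT1 (−2.08) were repressed more, and RHOU (−1.53), DYRK1B (−1.51), RAB26 (−1.21), LFNG (−0.99) and HTT (−0.94) were induced less.

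Genes under 1 CPM on one side gave the largest fitted values, DIO1 (−7.99), IGFBP4 (7.52), GJA9 (−6.70), HHIP (−6.45), CXCL5 (6.20), SV2A (−6.08) and HIST1H2BL (−5.72). These rest on groups at or near 0 counts and depend on the prior count. The reads of IGFBP4 and CXCL5 in HCT116 were all in hypoxia replicate 2, the library with the most reads of genes of the other lines, and without it neither was called. The part of that library in the other differences was not tested beyond leaving it out.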

How the results depend on the processing

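Of 252 results, 11585 comparisons with an alternative were made, and the direction reversed in 6. IGFBP4 reached 8.18 without HCT116 hypoxia replicate 1, and at most 21.21 among alternatives that kept all 24 libraries. It went from 7.52 to −0.54 without HCT116 hypoxia replicate 2 and to −0.49 without replicate 2 of every group. Without that replicate in every group it was −0.48 with the block added and −0.28 with the GC and length correction added. Without replicate 2 of both HCT116 groups it was −0.54. CA9 went from −0.55 to 2.35 against the mean of A549 and PC3, and its lowest value among alternatives that kept all 24 libraries was −3.64. The other alternatives below gave counts that moved by over 1.5 times, unless stated otherwise. Testing against a fold of 1.2 gave 951 higher and 1140 lower genes, 924 more induced, 48 less induced, 10 less repressed and 21 opposite. An adjusted p under 0.01 gave 658 and 743, with 642 more induced, 690 more repressed, 28 less induced, 8 less repressed and 15 opposite. A fold over 1.5 gave 13 less repressed and 27 opposite, DESeq2 162 less induced, and limma-voom 54 less induced, 14 less repressed and 25 opposite. Total-count scaling gave 60 less induced and 67 less repressed, the GC and length correction 59 less repressed, the mean of A549 and T47D 55 and that of A549 and PC3 57. DESeq2 called 1775 genes higher and 2393 lower, counts that moved by less than 1.5 times.

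Leaving out 1 library, or 1 replicate number in every group, gave between 34 and 1977 higher and between 61 and 2136 lower genes. By class the range was 31 to 1912 more induced, 44 to 1960 more repressed, 7 to 123 less induced, 1 to 48 less repressed and 12 to 72 opposite. These lowest values were those without replicate 2 of every group. Chosen after seeing the data were 4 further alternatives. Without HCT116 normoxia replicate 2 and with the GC and length correction, 633 genes were higher and 393 lower (581 more induced, 303 more repressed, 51 less induced). Without replicate 2 of both HCT116 groups there were 206 and 211 (198, 167, 23, 4 less repressed and 25 opposite). Without replicate 2 of every group and with the GC and length correction there were 75 and 72 (71, 43, 12, 1 and 20).

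The replicate numbers did not meet the rule for pairing the libraries. The correlation of deviations was over 0.1 in 6 of 12 pairs (0.045 to 0.257), although each library correlated best with its own number, a hint from the data and not the design. A fit with the replicate block called 2166 genes higher and 1941 lower, 63 less repressed and 84 opposite, with the GC and length correction 118 and 125 of the last classes, and without replicate 2 of every group 45 and 64 (40, 44, 7, 2 and 16). The cause of these changes was not tested. Depth limits genes under about 0.132 CPM, the level of 3 counts in the shallowest library.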
